A study of Mus musculus with 10 samples.

Results

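Integrins and laminins are the cell surface receptors and basement membrane proteins through which cells hold on to the matrix around them. All genes of a deposited table of chromatin accessibility were taken whose symbol starts with Itga or Itgb, or consists of Lama, Lamb or Lamc and a digit. This gave 42 of 21965 genes, of which 18 carry an Itga symbol, 13 an Itgb symbol and 11 a laminin symbol. The Itgb symbols include 4 genes that are not integrin subunits (Itgb1bp1, Itgb1bp2, Itgb3bp and Itgbl1), so 27 of the 42 encode integrin subunits.

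An integrin is a pair of an alpha and a beta subunit that spans the membrane, binds fibronectin, collagen, laminin or a counter-receptor outside the cell and connects to actin or keratin filaments inside it. A laminin is a cross-shaped trimer of an alpha, a beta and a gamma chain that gives the basement membrane its first network. Fibroblasts mainly hold fibronectin and collagen through beta 1 and alpha v integrins. Epithelial cells sit on laminin-332, whose chains include those of Lama3 and Lamb3 and which the alpha 6 beta 4 integrin grips, and an early event in the reprogramming of fibroblasts is a shift towards such epithelial features.

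The measurements were made by ATAC-seq, in which a transposase inserts sequencing adapters into accessible DNA, on mouse embryonic fibroblasts (MEFs) infected with pMXs retroviruses. All 10 conditions shared the cells, which came from E13.5 embryos of strain ICR with a GFP transgene driven by the Oct4 promoter (OG2-MEFs), and all were kept in mESC medium. The cells in SKO received Sox2, Klf4 and Oct4 together, and those in SKO+shBrg1 also received shBrg1, a short hairpin RNA against the chromatin remodeller Brg1. In SKO-L80A the Oct4 mutant L80A took the place of Oct4. SKO-L80A+Vc was SKO-L80A grown in medium that held 50 µg/ml of vitamin C, and SKO-L80A+Ga was SKO-L80A with Gadd45a. The remaining conditions were Oct4-L80A, Oct4, Klf4 and Sox2 given alone and a Flag control virus. The MEFs were used within 2 passages and about 50000 living cells went into each library. The labels name no selection for infected cells, so a library may average infected and uninfected ones.

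Each condition has 1 library and 2 columns of signal, counted as 1 replicate. No replicate error could be computed and no difference was tested. Differences are therefore described by size. A difference is the log2 of the deposited signal plus a pseudocount of 0.138, averaged over both columns, relative to the median difference of all genes. Higher and lower are used of a gene whose difference reached 1.5-fold (0.58 on the log2 scale) with the same sign in both columns and whose higher condition reached a signal of 6.92, the median of the whole table. To set levels side by side, the signal was also divided by that of the median gene of its column, and this multiple is called the relative signal. In bulk chromatin, fewer cells of a type and less signal per cell cannot be told apart.

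Column sums lay between 112439 and 370390, and Pearson's r between the 2 columns of a condition was 0.979 to 0.992 across genes. Signal over the Sox2 gene was 75.5 and 87.1 in Sox2 cells and 72.2 and 59.8 in SKO, against 2.73 and 5.12 in Flag. Signal over Klf4 was 166 and 146 in Klf4 cells, against 12.6 and 17.8 in Flag. Signal over Pou5f1, the gene of Oct4, was 30.8 and 24.2 in the library labelled Oct4, while Flag had 0.812 and 1.12. Sox2 signal was also present, at 62.9 and 55.2, in the library labelled Oct4, while Oct4-L80A had 2.37 and 5.47. Comparisons of the library labelled Oct4 with Flag or with Oct4-L80A therefore mix a Sox2 difference with the labelled one. Pou5f1 signal was 19.0 and 49.6 in Oct4-L80A. It was 15.4 and 27.5 in SKO-L80A, higher by 1.07 than in SKO (10.2 and 9.35). In SKO-L80A+Vc it was 8.59 and 10.4, lower than in SKO-L80A at -0.62. Sox2 signal was 38.5 and 51.8 in SKO-L80A and 22.0 and 22.5 in SKO-L80A+Vc. These comparisons also differ in factor signal. Signal over Gadd45a was 36.6 and 41.5 in SKO-L80A+Ga, against 37.3 and 52.1 in SKO-L80A. The deposited signal was thus not above that of SKO-L80A in either column, so this check does not show the added Gadd45a. A hairpin acts on RNA, so accessibility is no check of the Brg1 knockdown. The labelled cell type was checked against 12 fibroblast markers, whose summed relative signal was 14.1 to 24.1 and highest in Flag, while 7 blood markers summed to 2.76 to 3.35 and 5 endothelial markers to 1.40 to 2.28.

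The start-site windows of 6 genes are shown because the results turn on them: Itgbl1 and Itga5 were higher with the 3 factors, Itgb1 had the highest signal of the beta subunits, Itgb5 lay below the control, and Lamb3 and G0s2 shared their values. Each runs from 250 bases before to 50 bases after a start annotated by RefSeq (GRCm38.p6, the assembly of build mm10), 5′ to 3′ on the gene's own strand. Capitals mark the letters CACCC (a core bound by KLF factors) and GGGCGG (the GC box bound by Sp1-like factors) on either strand, and a CACCC and a GC box match can share bases, as in the Itgbl1 window. The windows are chr14:123659890-123660189 (plus strand) for Itgbl1, chr15:103366742-103367041 (minus strand) for Itga5, chr8:128685404-128685703 (plus strand) for Itgb1, chr16:33829415-33829714 (plus strand) for Itgb5, chr1:193301744-193302043 (plus strand) for Lamb3 and chr1:193273139-193273438 (minus strand) for G0s2.
Itgbl1: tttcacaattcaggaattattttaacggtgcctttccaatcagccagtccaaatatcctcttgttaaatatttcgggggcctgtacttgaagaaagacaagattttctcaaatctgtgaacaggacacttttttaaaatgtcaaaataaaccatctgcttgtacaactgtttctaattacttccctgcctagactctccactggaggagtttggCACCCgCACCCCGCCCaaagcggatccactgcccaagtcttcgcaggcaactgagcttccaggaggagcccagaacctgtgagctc
Itga5: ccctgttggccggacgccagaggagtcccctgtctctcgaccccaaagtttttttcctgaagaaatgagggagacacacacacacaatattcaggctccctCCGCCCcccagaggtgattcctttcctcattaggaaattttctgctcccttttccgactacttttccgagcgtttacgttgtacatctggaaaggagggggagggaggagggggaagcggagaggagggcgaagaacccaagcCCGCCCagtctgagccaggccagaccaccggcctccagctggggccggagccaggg
Itgb1: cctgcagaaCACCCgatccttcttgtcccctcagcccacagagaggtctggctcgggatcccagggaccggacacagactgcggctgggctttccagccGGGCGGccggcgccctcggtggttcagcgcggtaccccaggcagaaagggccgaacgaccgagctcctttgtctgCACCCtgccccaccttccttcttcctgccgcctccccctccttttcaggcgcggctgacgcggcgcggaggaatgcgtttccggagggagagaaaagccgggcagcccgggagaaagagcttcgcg
Itgb5: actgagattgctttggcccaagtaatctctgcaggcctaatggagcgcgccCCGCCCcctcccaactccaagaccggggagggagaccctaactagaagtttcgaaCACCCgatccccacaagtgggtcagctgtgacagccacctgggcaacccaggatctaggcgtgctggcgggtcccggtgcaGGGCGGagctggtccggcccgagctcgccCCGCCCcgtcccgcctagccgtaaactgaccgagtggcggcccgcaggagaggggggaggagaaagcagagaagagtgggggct
Lamb3: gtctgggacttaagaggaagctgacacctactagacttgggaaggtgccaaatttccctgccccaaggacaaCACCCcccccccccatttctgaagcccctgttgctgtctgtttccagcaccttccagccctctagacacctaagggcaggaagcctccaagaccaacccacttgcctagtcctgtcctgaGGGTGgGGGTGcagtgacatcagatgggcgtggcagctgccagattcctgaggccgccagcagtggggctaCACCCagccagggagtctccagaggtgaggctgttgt
G0s2: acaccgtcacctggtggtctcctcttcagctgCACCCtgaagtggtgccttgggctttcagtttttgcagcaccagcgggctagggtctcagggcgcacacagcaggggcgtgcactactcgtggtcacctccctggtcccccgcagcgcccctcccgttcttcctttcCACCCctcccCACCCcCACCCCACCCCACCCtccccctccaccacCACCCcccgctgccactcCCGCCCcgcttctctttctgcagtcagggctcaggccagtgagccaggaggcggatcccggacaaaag

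RefSeq windows were matched for 27 of the 42 genes, some with more than 1 start, which gave 30 windows of 300 bases. CACCC was present in 19 of these windows (63.3%), against 57.5% of all 32851 windows in the RefSeq table. The GC box was present in 13 (43.3%), against 35.7% of all windows. ATTGTT, a core bound by Sox factors, was found in 3 (10.0%), against 10.7% of all windows. The AP-1 motif TGANTCA was found in 3 (10.0%), against 7.81%. The octamer ATGCAAAT, which Oct factors bind, was found in 0 of the 30 windows, against 1.74% of all windows. Motifs were searched on both strands. Among the windows printed, that of Itgbl1 held 2 CACCC and 1 GC box match, and that of Itga5 held 0 CACCC and 2 GC box matches. The Itgb1 window held 2 CACCC and 1 GC box match, and the Itgb5 window held 1 and 3. Which of several starts the deposited table used for a gene is unknown.

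Genes with neighbouring starts shared their signal. Among 451 pairs of opposite-strand genes whose starts lay under 1 kb apart, 91.1% had mean signals within 0.01 on the log2 scale of each other, and among 53 pairs 1 to 2 kb apart 62.3% did. The share was 14.3% of 140 pairs at 2 to 5 kb and 2.97% of 943 pairs at 5 to 20 kb. Across genes, Spearman's rho of mean signal with gene length was 0.342 over 20748 genes and 0.235 over the 42, given as a description because genes of 1 table are not independent.

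Of the 42 genes, 5 had a row that repeated another gene's, with values within 0.05 on the log2 scale in at least 15 of the 20 columns. Itga1 matched Gm49395 in 20 columns, and Itgb1bp1 matched Cpsf3, whose start lies 13 bases away, in 20. Itgb3bp matched Pgm2 in 20 columns and Itgam matched Gm49368 in 16. Lamb3 (ENSMUSG00000026639, chromosome 1, 193294353 to 193343878) matched G0s2, which encodes an inhibitor of fat breakdown, in 19. The RefSeq starts of Lamb3 and G0s2 lie 28806 bases apart, and of 1401 opposite-strand pairs 20 to 50 kb apart 2.07% had signals within 0.01 on the log2 scale. The annotated Lamb3 gene begins nearer, 21165 bases from the G0s2 start, and which start the table used is unknown. The column outside the match was the first of Sox2, with 1.62 for Lamb3 and 1.38 for G0s2. Every other value given for Lamb3 is therefore equally a value of G0s2, and the 2 genes cannot be told apart in this table.

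**Figure D1:**
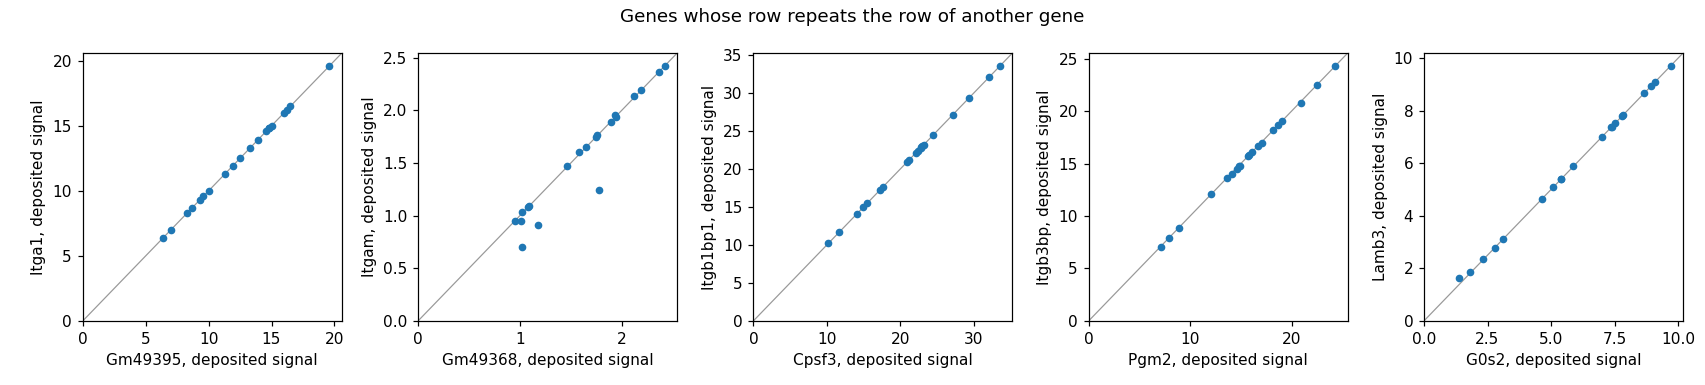
Deposited signal of 5 members (vertical axes) against that of the gene whose row theirs repeats (horizontal axes), 1 point per column of the table, with the line of equality. The Lamb3 points lie on the line with G0s2 in 19 of 20 columns within 0.05 on the log2 scale, and 4 of the 20 Itgam points lie farther from it.

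SKO cells had higher signal than Flag cells at 5 of the 42 genes and lower signal at 0. They were Itgbl1, which encodes a secreted protein built of integrin-like repeats, the laminin-332 chain gene Lama3, the gene of the vitronectin receptor subunit beta 3 (Itgb3), the gene of the fibronectin receptor subunit alpha 5 (Itga5), and Lamb3. Among all genes, 4.55% were called higher in this comparison and 0.373% lower. The median difference of the 42 genes was 0.20 when set against the median of all genes, and 31 of them lay above that median.

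Itgbl1 (ENSMUSG00000032925, chromosome 14, 123659937 to 123978865) had a signal of 19.6 and 12.8 in SKO, against 3.89 and 5.86 in Flag, a difference of 1.19. Lama3 (ENSMUSG00000024421) showed 13.6 and 11.5 in SKO cells, against 2.73 and 5.83 in Flag, a difference of 1.10. Both genes had their SKO columns above both Flag columns on the relative scale, and of the 5 called genes only these 2 also passed a 2-fold rule. Itgb3 (ENSMUSG00000020689, chromosome 11, 104608000 to 104670476) showed 13.7 and 10.9 in SKO cells, against 3.68 and 6.83 in Flag. Its difference was 0.76, but 0.57 in the second column alone and 0.53 after quantile normalisation, both short of the rule. Itga5 (ENSMUSG00000000555, chromosome 15, 103344286 to 103366791) showed 26.8 and 26.7 in SKO cells, against 9.09 and 13.8 in Flag. That was a difference of 0.74, or 0.57 and short of the rule in the first column alone. Lamb3 showed 7.52 and 7.84 in SKO cells, against 2.36 and 4.65 in Flag. Its difference was 0.67, and it was no longer called after quantile normalisation (0.43) or with differences centred on well-covered genes (0.57). All 5 genes kept their SKO columns above both Flag columns on the relative scale, but sizes differ between the 2 scales. Column medians, by which relative signals are divided, were 10.6 and 8.89 in SKO, against 4.45 and 7.55 in Flag. They lie farther apart than the all-gene shift of 0.50 removed from the differences. Relative signals therefore give smaller rises and larger falls in SKO. On that scale Itgb3 was at most 1.49-fold above Flag in any condition, short of 1.5-fold.

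The median of all genes itself lay 0.50 higher on the log2 scale in SKO than in Flag, and without its removal 17 of the 42 genes would be called higher, beside 28.3% of all genes. Markers of other cell types also differed between these libraries, between which 4.55% of all genes were called higher in SKO and 0.373% lower. Of 9 epithelial markers, 2 were called higher (Cldn3 and Krt8), and their summed relative signal was 4.52 and 4.31 in SKO, against 2.87 and 2.43 in Flag. Of 12 fibroblast markers, 1 (Lox) was called lower, and their sum was 16.2 and 16.4 in SKO, against 24.1 and 22.0 in Flag. These sums are relative signals, which give larger falls in SKO, and genes of high signal weigh most in them. The median difference was -0.21 for the fibroblast list and 0.36 for the epithelial list. The fibroblast marker Dcn went the other way without a call, with a signal of 7.60 and 6.16 in SKO, against 2.54 and 3.69 in Flag. No listed epithelial or fibroblast marker was at 0 in any column. The part of these marker differences in the integrin and laminin values was not tested.

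**Figure D2:**
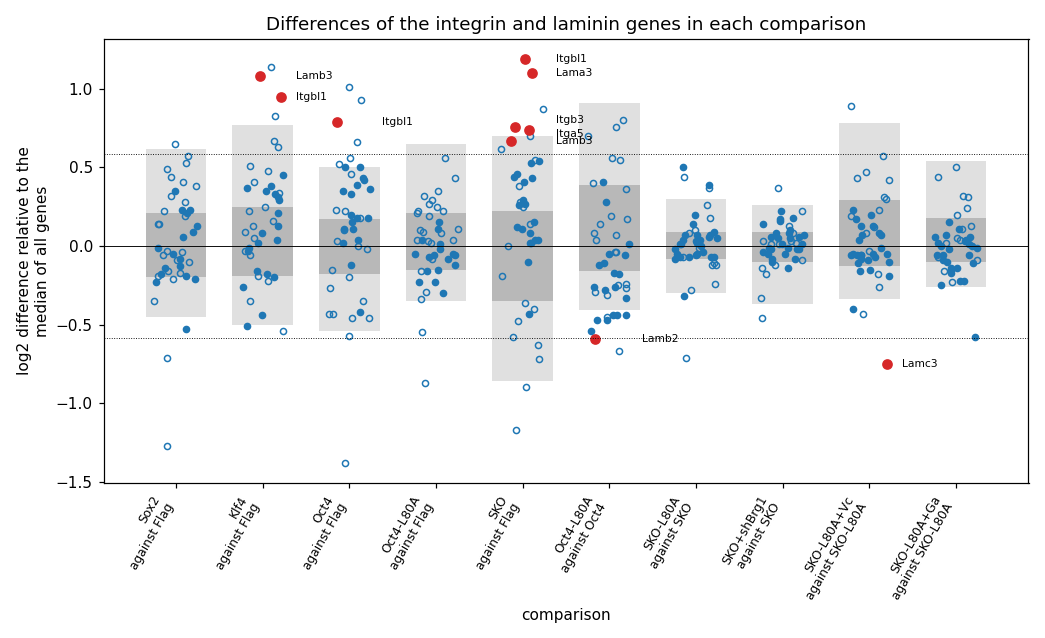
Log2 difference of each of the 42 genes relative to the median of all genes (vertical axis) in the 10 comparisons (horizontal axis), condition named first minus the other. Filled points reached the minimum signal of 6.92, open points did not, and red points with names passed the 1.5-fold rule (dotted lines at 0.58 and -0.58). Dark and light grey bands span percentiles 25 to 75 and 5 to 95 of all genes. SKO against Flag has 5 red points and no other comparison has more than 2.

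Klf4 cells had higher signal than Flag cells at 2 of the 42 genes, Lamb3 and Itgbl1, and lower signal at 0. Among all genes 2.0% were called higher and 1.27% lower. Lamb3 showed 5.88 and 9.10 in Klf4 cells, against 2.36 and 4.65 in Flag, a difference of 1.08. In the first column alone Lamb3 was 1.14 higher, but its signal there stayed under the minimum. Itgbl1 showed 7.83 and 11.6 in Klf4 cells, against 3.89 and 5.86 in Flag, a difference of 0.95. Both genes had their Klf4 columns above both Flag columns, and the highest relative signal of Lamb3 over all conditions, 1.07 and 1.25, was that in Klf4. The laminin receptor subunit gene Itga7 and the hemidesmosome subunit gene Itgb4 differed by 0.67 and 0.83 but stayed under the minimum signal. The median of the 42 genes was 0.15 above that of all genes.

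In the library labelled Oct4, 1 of the 42 genes, Itgbl1, was higher than in Flag and 0 were lower, while among all genes 1.18% were called higher and 0.300% lower. Itgbl1 had 9.26 and 9.71 in that library, against 3.89 and 5.86 in Flag, a difference of 0.79, with both columns above both Flag columns. Lama4, which encodes a laminin chain of vessels and mesenchyme, differed by 0.93, but its signal of 6.01 and 6.60, against 2.10 and 3.80 in Flag, stayed under the minimum. The median of the 42 genes was 0.16 above that of all genes.

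Sox2 cells and Oct4-L80A cells each had 0 of the 42 genes higher and 0 lower than Flag. Among all genes 0.387% were called higher and 0.851% lower with Sox2, and 0.0410% higher and 0.319% lower with Oct4-L80A. The largest difference with Sox2 among genes at the minimum signal was that of the vitronectin receptor subunit gene Itgb5, at -0.53. The medians of the 42 genes were -0.02 with Sox2 and 0.03 with Oct4-L80A. These 5 comparisons share the Flag library, so a chance high or low value there enters all of them.

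Oct4-L80A cells were lower than the library labelled Oct4 at 1 of the 42 genes, Lamb2, and higher at 0. Among all genes 0.829% were called lower and 0.0819% higher. Lamb2 (ENSMUSG00000052911, chromosome 9, 108479847 to 108490530) encodes the beta 2 chain of laminins at the kidney filter and the neuromuscular junction. Its signal was 6.11 and 14.5 in Oct4-L80A, against 17.7 and 20.0 in the library labelled Oct4, a difference of -0.59, only just past the rule. The call was lost after quantile normalisation (-0.46), with differences centred on well-covered genes (-0.48) and in the second column alone (-0.41). The median of the 42 genes was -0.12 relative to that of all genes, and 26 of them lay below it. Itgbl1 at -0.47, Itgb8 at -0.47 and Itgb1 at -0.44 had both Oct4-L80A columns below both columns of the library labelled Oct4 on the relative scale without reaching the rule. Because the library labelled Oct4 also holds Sox2 signal, a difference made by L80A and one made by Sox2 cannot be told apart here.

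With L80A in place of Oct4 among the 3 factors, 0 of the 42 genes were higher and 0 lower in SKO-L80A than in SKO, and among all genes 0.0137% were called higher and 0.00455% lower. With the hairpin against Brg1, 0 were higher and 0 lower in SKO+shBrg1 than in SKO, with 0.00455% and 0% of all genes called. Few genes of any kind passed the rule in either comparison. The median of the 42 genes was 0.01 in both. Pearson's r between the differences of the first and second columns was taken across the genes at the minimum signal in each comparison. It was 0.0810 (12635 genes) and 0.0944 (12811 genes) in the 2 comparisons, as against 0.737 (12475 genes) for SKO against Flag. Among these genes the columns hardly shared a direction in the 2 comparisons. The largest differences among genes at the minimum signal were those of Lamc3 and Lama4 in SKO-L80A, at 0.50 and 0.39, with both SKO-L80A columns above both SKO columns. Without replicates these counts do not show that the libraries were alike. SKO-L80A also had higher Pou5f1 signal than SKO, by 1.07, and the part of this in the values was not tested.

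With vitamin C 1 of the 42 genes, Lamc3, was lower in SKO-L80A+Vc than in SKO-L80A and 0 were higher, and among all genes 0.246% were called lower and 0.0683% higher. Lamc3 (ENSMUSG00000026840, chromosome 2, 31887281 to 31949083) encodes the gamma 3 laminin chain. Its signal was 3.99 and 3.80 in SKO-L80A+Vc, against 8.61 and 10.2 in SKO-L80A, a difference of -0.75 that was -0.74 and -0.77 in the 2 columns. Pou5f1 signal was also lower in SKO-L80A+Vc, at -0.62, and the part of this in the Lamc3 value was not tested. With Gadd45a 0 of the 42 genes were higher and 0 lower, against 0.00455% of all genes called higher and 0.0228% lower. Lamc3 came closest, at 4.92 and 5.50 in SKO-L80A+Ga, against the same SKO-L80A values, and its difference of -0.58 was just short of the rule. Both comparisons share the SKO-L80A library, in which Lamc3 was at its highest over all conditions, with relative signals of 0.974 and 0.933, against 0.608 and 0.601 in Flag and 0.572 and 0.804 in SKO. The median of all genes lay 0.49 lower in SKO-L80A+Vc than in SKO-L80A, and without its removal 7 of the 42 genes would be called lower, beside 24.9% of all genes. The remaining relative signals of Lamc3 were 0.751 and 0.644 in SKO+shBrg1, 0.617 and 0.578 in SKO-L80A+Vc, 0.602 and 0.724 in SKO-L80A+Ga, 0.671 and 0.603 in Oct4-L80A, 0.575 and 0.536 in the library labelled Oct4, 0.680 and 0.764 in Klf4 and 0.656 and 0.649 in Sox2.

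**Figure D3:**
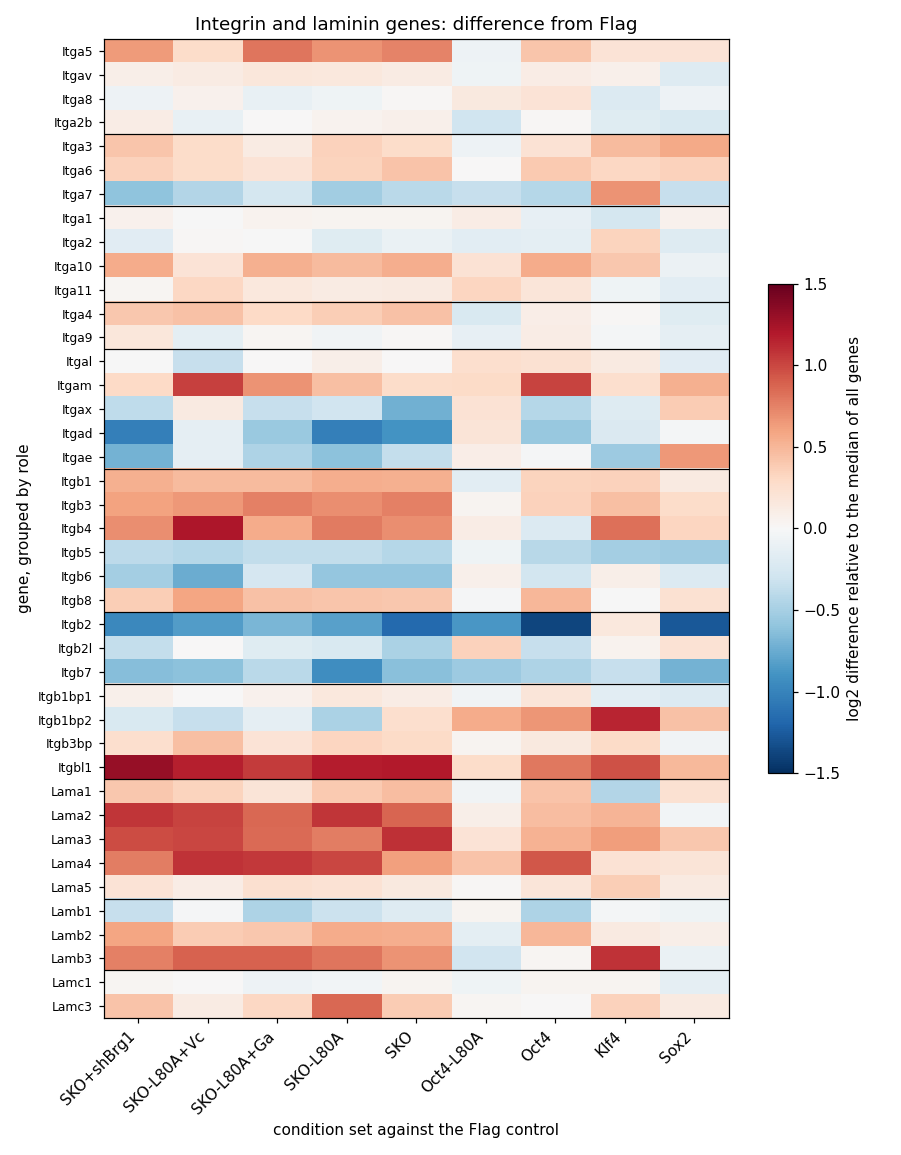
Log2 difference from Flag, relative to the median of all genes, of the genes reported here (rows, grouped by role) in the other 9 conditions (columns), averaged over both columns of a condition. Red is higher and blue is lower than Flag. The Itgbl1 row is red in every column, with its deepest colours in the 5 conditions that hold Sox2, Klf4 and Oct4 or L80A (1.05 to 1.31), and the Itgb2 row is blue in every column but that of Klf4. The comparisons of SKO-L80A, SKO+shBrg1, SKO-L80A+Vc and SKO-L80A+Ga with Flag were added after the data were seen.

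The 4 conditions built on SKO or SKO-L80A were also set against Flag, comparisons added after the data were seen. Higher than in Flag were 8 of the 42 genes in SKO+shBrg1, 4 in SKO-L80A+Vc, 6 in SKO-L80A+Ga and 8 in SKO-L80A, and 0 were lower in each, beside 4.89%, 2.75%, 3.08% and 4.42% of all genes called higher and 0.305%, 0.555%, 0.269% and 0.378% called lower. In SKO+shBrg1 the second column alone gave 3, and after quantile normalisation 2 genes were higher there and 2 in SKO-L80A. Itgbl1 differed by 1.31 in SKO+shBrg1, 1.17 in SKO-L80A+Vc, 1.05 in SKO-L80A+Ga and 1.18 in SKO-L80A. Lama3 differed by 0.98, 1.00, 0.85 and 0.77 in the same order of conditions. Itgb3 differed by 0.60, 0.65, 0.75 and 0.70. Itga5 was uneven, at 0.64 in SKO+shBrg1, 0.80 in SKO-L80A+Ga and 0.67 in SKO-L80A but 0.28 in SKO-L80A+Vc, where its columns overlapped those of Flag. Lamb3 differed by 0.75 in SKO+shBrg1, 0.88 in SKO-L80A+Vc, 0.88 in SKO-L80A+Ga and 0.80 in SKO-L80A, and was not called in SKO-L80A+Vc, where its signal stayed under the minimum.

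Calls that SKO itself did not show were those of Lama4, Lama2, Lamc3, Lamb2 and Itgb8. Lama4 differed from Flag by 0.77 in SKO+shBrg1, 1.08 in SKO-L80A+Vc, 1.06 in SKO-L80A+Ga and 1.00 in SKO-L80A, and was called higher in all of these but SKO-L80A+Vc. Lama2 differed by 1.07 in SKO+shBrg1, 1.01 in SKO-L80A+Vc, 0.86 in SKO-L80A+Ga and 1.07 in SKO-L80A, and was called higher in SKO+shBrg1 and SKO-L80A. Lamc3 was higher in SKO-L80A, at 0.86, against 0.38 in SKO and 0.12 in SKO-L80A+Vc. Lamb2 was higher in SKO+shBrg1, at 0.59, and Itgb8 in SKO-L80A+Vc, at 0.59, both only just past the rule. The same Flag library is the other side of each value, and whether these values differ from those of SKO was not tested.

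The receptors of fibronectin and other ligands with an RGD sequence are taken first, since they carry fibroblast adhesion. Itga5, whose protein pairs with beta 1 to bind fibronectin, had relative signals of 2.80 and 2.27 in SKO+shBrg1, 1.94 and 2.35 in SKO-L80A+Vc, 3.19 and 2.74 in SKO-L80A+Ga, 2.74 and 2.52 in SKO-L80A and 2.52 and 3.01 in SKO. The remaining libraries gave 1.94 and 1.84 in Oct4-L80A, 2.63 and 2.14 in the library labelled Oct4, 2.09 and 2.10 in Klf4, 2.63 and 1.81 in Sox2 and 2.04 and 1.83 in Flag. It lay above Flag in both columns of 6 conditions and below in none. Itgav, the common partner of the beta 3, beta 5, beta 6 and beta 8 subunits, had 2.28 and 2.47 in SKO+shBrg1, 2.45 and 2.82 in SKO-L80A+Vc, 2.52 and 2.76 in SKO-L80A+Ga, 2.51 and 2.56 in SKO-L80A and 2.32 and 2.62 in SKO. Its other relative signals were 2.44 and 2.88 in Oct4-L80A, 2.64 and 2.66 in the library labelled Oct4, 2.80 and 2.47 in Klf4, 2.35 and 2.23 in Sox2 and 2.44 and 2.93 in Flag. Itgav varied little, with 1.17-fold between its highest and lowest condition, and overlapped Flag in 8 of 9 conditions. Itga8, which pairs with beta 1 and binds nephronectin, had a signal of 5.16 to 14.3 and passed no comparison.

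Itga2b, whose protein is the fibrinogen receptor subunit of platelets, had the highest relative signal of all 42 genes in every condition by mean of its columns, with a median of 4.78 over conditions. Its signal ranged from 15.5 to 63.8. The other platelet markers were low, with 1.70 to 4.46 for Gp9, 1.04 to 2.01 for Gp1ba and 0.0844 to 0.498 for Pf4. Itga2b passed the rule in 0 of 10 comparisons and lay below Flag in both columns of Klf4 and Oct4-L80A.

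Among the laminin receptor alpha subunits, Itga3 had relative signals of 0.958 and 0.684 in SKO+shBrg1, 0.791 and 0.774 in SKO-L80A+Vc, 0.607 and 0.763 in SKO-L80A+Ga, 0.864 and 0.708 in SKO-L80A and 0.746 and 0.736 in SKO. In the other conditions it had 0.711 and 0.682 in Oct4-L80A, 0.962 and 0.610 in the library labelled Oct4, 0.997 and 0.887 in Klf4, 1.13 and 0.971 in Sox2 and 0.727 and 0.702 in Flag, so that it was highest in Sox2 and Klf4. Its signal reached the minimum in 3 of 10 conditions, and its difference in Sox2 against Flag was 0.57, just under the rule and called in no comparison. Itga6, which pairs with beta 1 or beta 4, had 1.10 and 1.41 in SKO+shBrg1, 1.34 and 1.22 in SKO-L80A+Vc, 1.09 and 1.26 in SKO-L80A+Ga, 1.10 and 1.40 in SKO-L80A and 1.22 and 1.44 in SKO. Elsewhere it stood at 1.04 and 1.39 in Oct4-L80A, 1.45 and 1.35 in the library labelled Oct4, 1.32 and 1.37 in Klf4, 1.43 and 1.46 in Sox2 and 1.15 and 1.16 in Flag. Itga6 was lowest in Flag by mean of its columns and varied 1.25-fold over conditions. Itga7, the laminin receptor subunit of muscle, stayed at a signal of 1.75 to 5.42. It was highest in Klf4, with 0.895 and 0.745, against 0.606 and 0.486 in Flag, and lay below Flag in both columns of 7 conditions, all under the minimum signal.

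The collagen receptor alpha subunits passed no comparison. Itga11, the fibrillar collagen receptor of fibroblasts, had relative signals of 0.479 and 0.573 in SKO+shBrg1, 0.793 and 0.601 in SKO-L80A+Vc, 0.590 and 0.603 in SKO-L80A+Ga, 0.553 and 0.583 in SKO-L80A and 0.544 and 0.610 in SKO. The remaining libraries gave 0.835 and 0.744 in Oct4-L80A, 0.612 and 0.656 in the library labelled Oct4, 0.542 and 0.543 in Klf4, 0.549 and 0.504 in Sox2 and 0.594 and 0.622 in Flag. Itga11 was highest in Oct4-L80A, with both columns above both Flag columns, but never reached the minimum signal. Itga10, known from cartilage, lay above Flag in both columns of 8 conditions, all but Sox2, at a signal of 1.77 to 6.43 that also never reached the minimum. Itga2 lay below Flag in both columns of 7 conditions and above it in Klf4, at 1.21 and 1.43, against 1.09 and 1.14 in Flag. Itga1, whose row repeats that of Gm49395, had a signal of 6.38 to 19.6 and overlapped Flag in 8 of 9 conditions. Itga1 and Itga2 are neighbours on chromosome 13, 25978 bases apart.

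Itga4, whose protein binds Vcam1 and fibronectin, had a signal of 4.67 to 19.0, and Itga9, which binds tenascin, 3.89 to 14.4. Itga4 differed from Flag by 0.44 in SKO, with both columns above, and Itga9 by 0.02. Neither passed the rule in any comparison.

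The leukocyte integrin genes were low, and none reached the minimum signal in any condition. The 5 alpha genes (Itgal, Itgam, Itgax, Itgad and Itgae) had signals of 0.421 to 4.72, and the 3 beta genes (Itgb2, Itgb2l and Itgb7) 0.905 to 6.40. Itgb2, the shared beta subunit of white blood cells, was at its highest in Klf4 and Flag. Its signal was 1.70 and 2.85 in the library labelled Oct4, 5.55 and 6.40 in Klf4 and 1.74 and 2.18 in Sox2, against 4.57 and 5.98 in Flag. Relative to Flag it differed by -1.27 in Sox2, -1.38 in the library labelled Oct4, -1.17 in SKO and -0.87 in Oct4-L80A, but 0.16 in Klf4. Both of its relative columns lay below both Flag columns in 8 of 9 conditions, all but Klf4. After quantile normalisation it reached the minimum signal and was called lower than Flag in the same 8 conditions, SKO among them. Of the 7 blood markers none was at 0, and their signals were unlike. The pan-leukocyte gene Ptprc had 0.202 to 1.75 and was highest in Klf4, at 1.31 and 1.75, against 0.478 and 0.496 in Flag. Coro1a had 4.05 to 17.5 and was called higher in SKO than in Flag (0.64). Lcp1 had 1.96 to 6.16 and Vav1 1.76 to 7.02, while Laptm5, Spi1 and Cd48 lay between 0.145 and 2.38. The part of blood cells in the Itgb2 values was not tested. Itgb7 lay below Flag in both columns of 6 conditions and above it in none. Itgam, Itgax and Itgad lie side by side on chromosome 7. Itgam differed by 1.01 in the library labelled Oct4, and Itgad by -0.90 in SKO, where its columns were -1.64 and -0.20.

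Of the beta subunits of tissue cells, Itgb1, the partner of most alpha subunits, had the highest signal. Itgb1 (ENSMUSG00000025809, chromosome 8, 128685654 to 128733579) had relative signals of 4.03 and 3.92 in SKO+shBrg1, 4.18 and 4.20 in SKO-L80A+Vc, 4.06 and 3.96 in SKO-L80A+Ga, 4.43 and 3.81 in SKO-L80A and 4.03 and 4.09 in SKO. Its other relative signals were 2.95 and 3.18 in Oct4-L80A, 4.06 and 3.58 in the library labelled Oct4, 4.36 and 3.54 in Klf4, 3.99 and 3.11 in Sox2 and 3.21 and 3.40 in Flag. Both columns exceeded both Flag columns in 7 conditions and were below them in Oct4-L80A, and the difference reached 0.53 in SKO, short of the rule. Itgb3, which forms the vitronectin receptor with alpha v, had 1.23 and 0.999 in SKO+shBrg1, 1.11 and 1.39 in SKO-L80A+Vc, 1.28 and 1.30 in SKO-L80A+Ga, 1.16 and 1.25 in SKO-L80A and 1.29 and 1.22 in SKO. In the other conditions it had 0.908 and 0.929 in Oct4-L80A, 0.989 and 1.04 in the library labelled Oct4, 1.17 and 1.06 in Klf4, 1.12 and 0.945 in Sox2 and 0.826 and 0.905 in Flag. It exceeded Flag in both columns of all 9 conditions, by only 0.04 in Oct4-L80A.

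Itgb5, the other vitronectin receptor subunit, ran the opposite way. Itgb5 (ENSMUSG00000022817, chromosome 16, 33829665 to 33949338) had relative signals of 1.29 and 1.08 in SKO+shBrg1, 1.27 and 1.22 in SKO-L80A+Vc, 1.63 and 0.954 in SKO-L80A+Ga, 1.60 and 0.920 in SKO-L80A and 1.35 and 1.01 in SKO. Elsewhere it stood at 1.94 and 1.74 in Oct4-L80A, 1.55 and 1.03 in the library labelled Oct4, 1.26 and 1.15 in Klf4, 1.48 and 1.05 in Sox2 and 1.89 and 1.82 in Flag. Both columns lay below both Flag columns in 8 of 9 conditions, the exception being Oct4-L80A. Differences from Flag were -0.43 in SKO, -0.42 in the library labelled Oct4, -0.51 in Klf4 and -0.53 in Sox2, against -0.06 in Oct4-L80A. None passed the rule, and the difference was uneven between columns, with -0.21 and -0.69 in SKO. By mean relative signal, which is centred otherwise, Itgb5 was lowest in SKO (1.18) and highest in Flag (1.85), 1.57-fold apart.

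Itgb4, the hemidesmosome subunit that binds laminin-332, had relative signals of 0.441 and 0.383 in SKO+shBrg1, 0.722 and 0.558 in SKO-L80A+Vc, 0.407 and 0.364 in SKO-L80A+Ga, 0.455 and 0.421 in SKO-L80A and 0.467 and 0.372 in SKO. The remaining libraries gave 0.442 and 0.235 in Oct4-L80A, 0.223 and 0.236 in the library labelled Oct4, 0.554 and 0.447 in Klf4, 0.369 and 0.342 in Sox2 and 0.287 and 0.289 in Flag. It exceeded Flag in both columns of 7 conditions, by 0.70 in SKO and 0.83 in Klf4, and lay below it in the library labelled Oct4. Its signal stayed at 1.28 to 5.19, under the minimum in every condition, so no call was made. Itgb8 and Itgb6, whose proteins activate latent TGF-beta, had unlike signal levels. Itgb8 had a signal of 7.42 to 26.7 and exceeded Flag in both columns of 4 conditions, with a difference of 0.50 in the library labelled Oct4 and 0.59 in SKO-L80A+Vc, where it was called. Itgb6, an epithelial subunit, had a signal of 2.05 to 5.25, under the minimum in every condition. It lay below Flag in both columns of 7 conditions without a call.

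**Figure D4:**
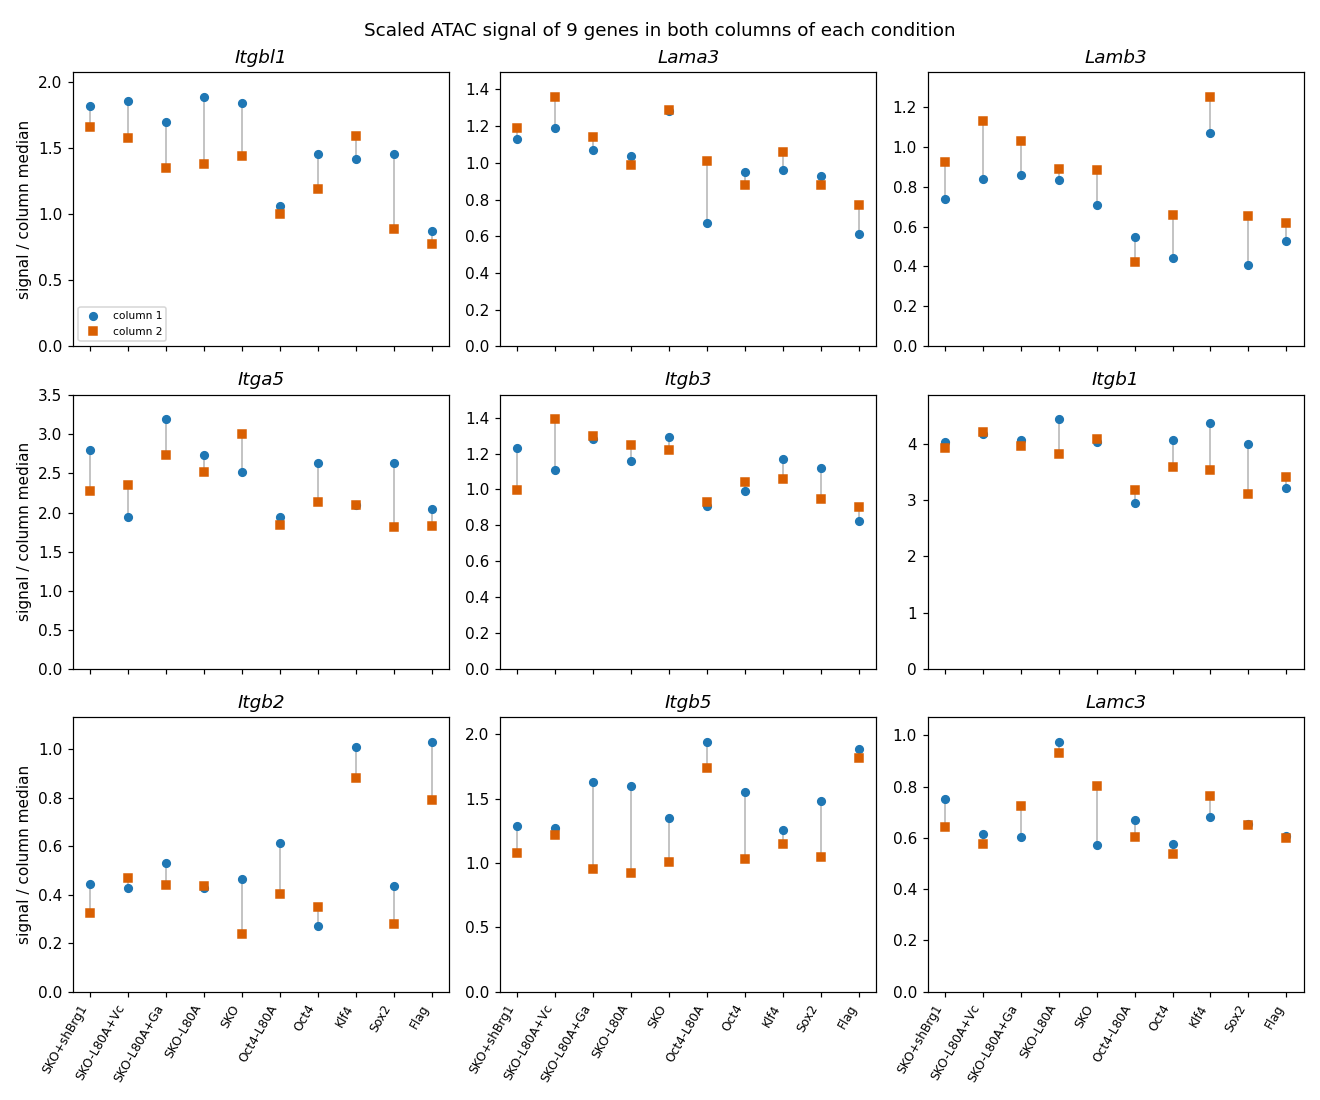
Relative signal (signal divided by the median gene of its column, vertical axes starting at 0) of 9 genes in the 10 conditions (horizontal axes), with column 1 as a circle and column 2 as a square. Itgbl1 and Itgb3 lie above Flag in both columns of all 9 other conditions, Itgb5 and Itgb2 lie below it in 8, and Lamc3 is highest in SKO-L80A.

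Of the 4 genes that share the Itgb symbol without being subunits, Itgbl1 stood above Flag throughout. It had relative signals of 1.82 and 1.66 in SKO+shBrg1, 1.86 and 1.58 in SKO-L80A+Vc, 1.70 and 1.35 in SKO-L80A+Ga, 1.89 and 1.38 in SKO-L80A and 1.84 and 1.44 in SKO. Its other relative signals were 1.06 and 1.00 in Oct4-L80A, 1.46 and 1.19 in the library labelled Oct4, 1.42 and 1.59 in Klf4, 1.46 and 0.890 in Sox2 and 0.874 and 0.776 in Flag. Both columns exceeded both Flag columns in all 9 conditions, with the smallest difference, 0.27, in Oct4-L80A. Itgb1bp1, whose protein binds the beta 1 tail, had a signal of 10.2 to 33.6, shared with Cpsf3. Itgb3bp, which encodes a kinetochore protein, had 7.04 to 24.3, shared with Pgm2. Itgb1bp2, a muscle gene, had the lowest median relative signal of the 42, at a signal of 0.272 to 2.11. None of these 3 passed the rule.

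The laminin alpha chains all lay above the median of all genes in SKO against Flag, by 0.15 (Lama5) to 1.10 (Lama3), with only Lama3 called. The direction of Lama5 depended on the centring. Its relative signals were 0.931 and 1.01 in SKO, against 1.06 and 0.984 in Flag, and SKO was its lowest condition on that scale. Lama1, the chain of the earliest embryonic basement membranes, had relative signals of 1.56 and 1.57 in SKO+shBrg1, 1.42 and 1.84 in SKO-L80A+Vc, 1.31 and 1.52 in SKO-L80A+Ga, 1.55 and 1.60 in SKO-L80A and 1.57 and 1.74 in SKO. In the other conditions it had 1.40 and 1.41 in Oct4-L80A, 1.76 and 1.75 in the library labelled Oct4, 0.956 and 0.971 in Klf4, 1.70 and 1.55 in Sox2 and 1.30 and 1.53 in Flag. Lama1 was lowest in Klf4, where it differed from Flag by -0.44, and stood above Flag in both columns of 5 conditions. Lama2, the laminin chain of muscle, had 0.632 and 0.714 in SKO+shBrg1, 0.662 and 0.714 in SKO-L80A+Vc, 0.593 and 0.608 in SKO-L80A+Ga, 0.466 and 0.977 in SKO-L80A and 0.515 and 0.678 in SKO. Elsewhere it stood at 0.446 and 0.366 in Oct4-L80A, 0.427 and 0.520 in the library labelled Oct4, 0.427 and 0.574 in Klf4, 0.341 and 0.348 in Sox2 and 0.314 and 0.423 in Flag. Its 2 SKO-L80A columns were far apart, it reached the minimum signal in 2 conditions, and it differed from Flag by 0.87 in SKO without a call; both conditions at the minimum, SKO+shBrg1 and SKO-L80A, were called higher than Flag.

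Lama3 had relative signals of 1.13 and 1.19 in SKO+shBrg1, 1.19 and 1.36 in SKO-L80A+Vc, 1.07 and 1.14 in SKO-L80A+Ga, 1.04 and 0.991 in SKO-L80A and 1.28 and 1.29 in SKO. The remaining libraries gave 0.674 and 1.01 in Oct4-L80A, 0.949 and 0.881 in the library labelled Oct4, 0.959 and 1.06 in Klf4, 0.927 and 0.877 in Sox2 and 0.614 and 0.772 in Flag. It exceeded Flag in both columns of 8 conditions, overlapped it in Oct4-L80A and was highest in SKO by the mean of its columns. Lama4 had 0.729 and 0.698 in SKO+shBrg1, 1.00 and 0.919 in SKO-L80A+Vc, 0.885 and 0.940 in SKO-L80A+Ga, 0.881 and 0.828 in SKO-L80A and 0.633 and 0.676 in SKO. Its other relative signals were 0.710 and 0.669 in Oct4-L80A, 0.950 and 0.805 in the library labelled Oct4, 0.481 and 0.589 in Klf4, 0.578 and 0.518 in Sox2 and 0.473 and 0.503 in Flag. Lama4 also exceeded Flag in both columns of 8 conditions, overlapping it in Klf4, and its SKO difference of 0.62 was not called because the signal stayed under the minimum, while SKO+shBrg1, SKO-L80A+Ga and SKO-L80A were called higher. Lama5, the most widespread alpha chain, had 1.00 and 0.978 in SKO+shBrg1, 1.04 and 0.954 in SKO-L80A+Vc, 1.05 and 1.07 in SKO-L80A+Ga, 0.958 and 1.06 in SKO-L80A and 0.931 and 1.01 in SKO. In the other conditions it had 0.990 and 1.15 in Oct4-L80A, 0.994 and 1.14 in the library labelled Oct4, 1.25 and 1.21 in Klf4, 0.991 and 1.21 in Sox2 and 1.06 and 0.984 in Flag. Lama5 varied 1.27-fold over conditions and overlapped Flag in 8 of 9.

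Of the beta chains, Lamb1, the partner of gamma 1 in most laminins, had relative signals of 0.229 and 0.354 in SKO+shBrg1, 0.412 and 0.362 in SKO-L80A+Vc, 0.265 and 0.276 in SKO-L80A+Ga, 0.301 and 0.285 in SKO-L80A and 0.376 and 0.276 in SKO. Elsewhere it stood at 0.511 and 0.406 in Oct4-L80A, 0.279 and 0.288 in the library labelled Oct4, 0.406 and 0.383 in Klf4, 0.484 and 0.333 in Sox2 and 0.493 and 0.377 in Flag. It lay below Flag in both columns of 5 conditions with its signal under the minimum throughout. Lamb2 had 2.77 and 2.36 in SKO+shBrg1, 2.68 and 2.12 in SKO-L80A+Vc, 2.45 and 2.25 in SKO-L80A+Ga, 2.62 and 2.45 in SKO-L80A and 2.65 and 2.36 in SKO. The remaining libraries gave 1.81 and 1.97 in Oct4-L80A, 2.80 and 2.45 in the library labelled Oct4, 2.41 and 1.78 in Klf4, 2.38 and 1.87 in Sox2 and 2.15 and 1.90 in Flag. Lamb2 exceeded Flag in both columns of 5 conditions and differed by 0.54 in SKO, short of the rule, and of the comparisons with Flag only that of SKO+shBrg1 called it. Lamb3, with values that repeat those of G0s2 in all but the first Sox2 column, had 0.736 and 0.925 in SKO+shBrg1, 0.836 and 1.13 in SKO-L80A+Vc, 0.857 and 1.03 in SKO-L80A+Ga, 0.835 and 0.889 in SKO-L80A and 0.708 and 0.882 in SKO. Its other relative signals were 0.547 and 0.420 in Oct4-L80A, 0.440 and 0.659 in the library labelled Oct4, 1.07 and 1.25 in Klf4, 0.406 and 0.654 in Sox2 and 0.530 and 0.616 in Flag. It exceeded Flag in both columns of 6 conditions, which are those that received Klf4.

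Of the gamma chains, Lamc1, the chain of most laminins, had relative signals of 3.28 and 2.79 in SKO+shBrg1, 3.56 and 2.91 in SKO-L80A+Vc, 3.12 and 2.73 in SKO-L80A+Ga, 3.26 and 2.62 in SKO-L80A and 3.08 and 3.11 in SKO. In the other conditions it had 3.59 and 3.42 in Oct4-L80A, 3.78 and 2.96 in the library labelled Oct4, 3.58 and 3.21 in Klf4, 3.42 and 2.91 in Sox2 and 3.91 and 3.22 in Flag. Lamc1 was the steadiest laminin gene, with 1.22-fold between its highest and lowest condition.

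**Figure D5:**
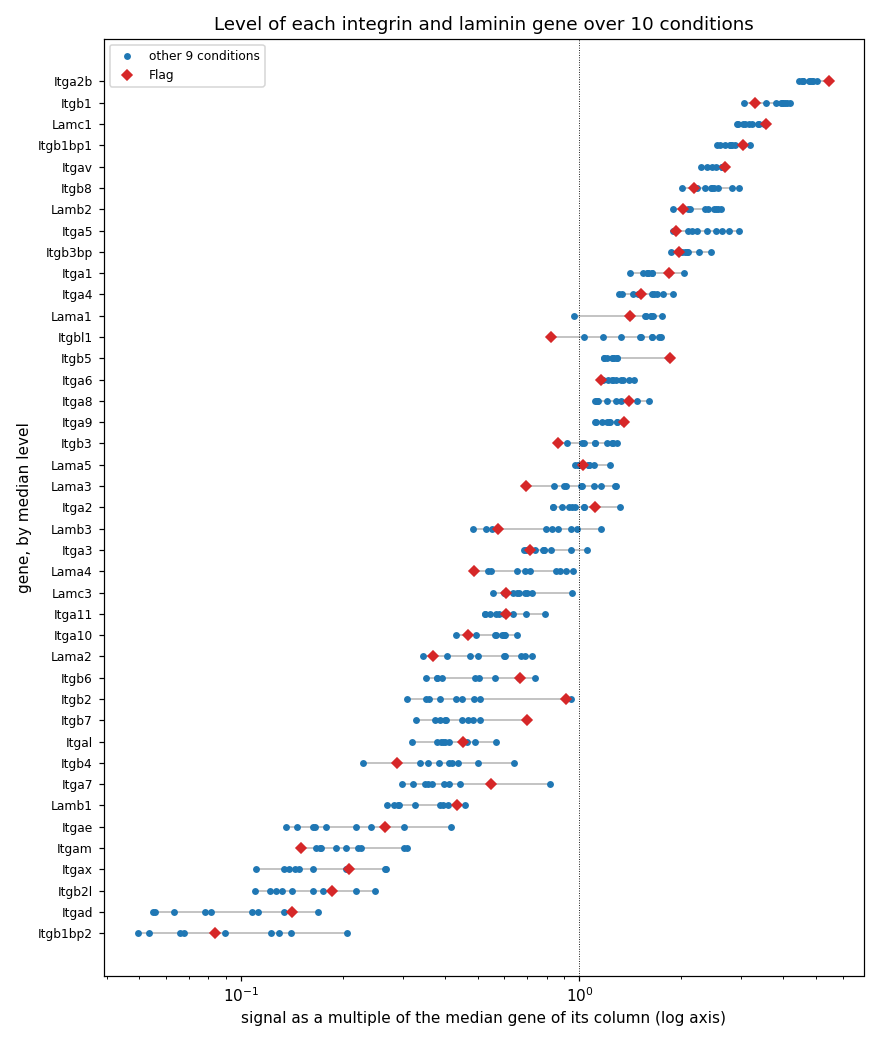
Relative signal of the genes reported here (rows, ordered by median over conditions, log axis) in the 9 other conditions (blue) and Flag (red diamonds), each the mean of both columns, with the vertical line at the median gene. Flag lies at the low end for Itgbl1, Itgb3, Lama3 and Lama4 and at the high end for Itgb5, Itgb7 and Itga2b.

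In order of median relative signal, Itga2b (4.78) was followed by Itgb1 (3.97), Lamc1 (3.20), Itgb1bp1 (2.81), Itgav (2.63), Itgb8 (2.46), Lamb2 (2.37) and Itga5 (2.30). From Itgb1 to Itga5 the ranges over conditions of neighbours in this order overlapped, so the order among these neighbours is not distinct from their spread. At the minimum signal in every condition were 14 of the 42 genes (33.3%), against 42.0% of all genes, and 15 never reached it. The median ratio of the highest to the lowest condition was 1.57 for the 42 genes and 1.57 for all 21964 genes with signal in every condition. Whether the deposited density is per length is not stated, so the order between genes describes this table alone.

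The partners of integrins and laminins inside and outside the cell were read from 3 lists by the same rule. In SKO against Flag that rule called 4.55% of all genes higher and 0.373% lower. Of 24 adhesome genes, which link integrins to actin, 2 were higher and 1 lower in SKO than in Flag, with a median difference of 0.12. Tns4, which encodes the adaptor tensin 4, was higher by 2.40, with a signal of 36.1 and 24.6 in SKO, against 3.15 and 4.71 in Flag. The kinase gene Src was higher by 0.63, with 40.7 and 32.9 in SKO, against 14.2 and 19.2 in Flag. Tln2, which encodes talin 2, an activator of integrins, was lower at -0.97, with 11.0 and 5.75 in SKO, against 8.59 and 14.2 in Flag.

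Tns4 and Tln2 were also called in each of the single-factor comparisons but that of Oct4-L80A. Tns4 was higher than in Flag by 1.76 in Sox2, 1.29 in Klf4 and 1.43 in the library labelled Oct4, while Tln2 was lower, at -1.03, -1.38 and -1.22. In Oct4-L80A against the Oct4-labelled library both went the other way, with Tns4 lower at -1.94 and Tln2 higher at 0.91. Tns4 signal was 1.47 and 3.46 in Oct4-L80A, against 12.5 and 11.6 in the library labelled Oct4. In that comparison the Sox2 difference between the 2 libraries again cannot be told apart from that of L80A.

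Of 17 genes of basement membrane and laminin partners, 3 were higher and 0 lower in SKO than in Flag, with a median of 0.45. Among all genes 4.55% were called higher in that comparison and 0.373% lower. They were the perlecan gene Hspg2 at 0.70, the laminin receptor gene Bcam at 1.10 and the netrin gene Ntn4, whose protein binds laminin, at 0.70. Bcam signal was 9.97 and 7.11 in SKO, against 2.11 and 3.38 in Flag. In the other 9 comparisons 0 of the 17 were called in either direction. Of 14 integrin ligand genes, 1 was higher in SKO (Vcam1, 0.89) and 1 lower (Postn, -0.62), with a median of -0.06. Fn1, which encodes fibronectin, was lower in Klf4 than in Flag at -0.94, with 15.0 and 19.9 in Klf4, against 25.9 and 41.4 in Flag. Ltbp1, which encodes a carrier of latent TGF-beta, was lower than in Flag at -0.83 in Klf4, -0.62 in Sox2 and -0.68 in Oct4-L80A. Vcam1 was higher in the library labelled Oct4 at 0.68. For all 3 lists, 0 genes were called in SKO-L80A or SKO+shBrg1 against SKO, or in SKO-L80A+Vc or SKO-L80A+Ga against SKO-L80A. In these comparisons at most 0.246% of all genes were called in either direction, so counts of 0 in lists this short say little about them.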

How the data were processed

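ATAC-seq of MEFs was deposited by the authors as 1 table of signal, named a density in the deposited file, for 21965 genes in 20 columns, 2 per condition. No source used here gives the window, the scaling between columns or the relation of the 2 columns, so the depth is unknown, no counting interval was computed, and the columns were counted as 1 replicate. Tools named without a role in the submitters' processing notes are DESeq2 1.22.2, bedtools 2.25.0 and deepTools, MACS2 2.1.0, SAMtools 1.3.1 with Picard, and Bowtie2 2.2.5 with cutadapt 1.13 and Trimmomatic 0.35, and the build there is mm10.

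The pseudocount (0.138) is percentile 10 of the values above 0. Differences were computed with Python 3.11.15, pandas 2.3.3 and NumPy 2.4.6 across all genes, with the 1.5-fold rule given above, and figures were drawn with matplotlib 3.10.9. In simulated data for 21965 genes, a planted shift of 0.57 on the log2 scale came out as 0.50 by the median of all genes and 0.57 by the median of genes at the minimum signal, and centring on those genes was added as an alternative. Symbols of all 42 genes matched RefSeq (GRCm38.p6).

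Values in every column are given for genes past the rule in the first 10 comparisons, not the 4 added ones, and for members chosen by role, 1 of which is not reported here although the counts over the 42 genes include it, and at most 3 genes per list, comparison and direction are named from the lists of partners. The members, lists and rule were chosen with earlier results of these data known.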

Additional observations from a re-analysis of the deposited data

How the results depend on the processing

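Of the 10 calls (a gene in a comparison), 10 remained with a pseudocount 4 times larger or smaller, without the minimum signal and without centring, 8 with centring on genes at the minimum signal (added after the data were seen), 7 after quantile normalisation and 3 under a 2-fold rule. Of the 26 calls in the 4 comparisons with Flag that were added after the data were seen, 24 remained with the larger pseudocount, 21 with centring on genes at the minimum signal, 10 after quantile normalisation and 9 under a 2-fold rule. No called difference changed sign in these settings.

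The number of the 42 genes called moved as follows, with the share of all genes called in brackets. Without the minimum signal it was 3 (7.91%) in Sox2, 6 (11.7%) in Klf4, 5 (7.21%) in the library labelled Oct4, 1 (7.44%) in Oct4-L80A, 11 (17.1%) in SKO, 14 (24.1%) in SKO+shBrg1, 12 (10.4%) in SKO-L80A+Vc and 13 (19.5%) in SKO-L80A against Flag, 5 (14.2%) in Oct4-L80A against the Oct4-labelled library, 1 (1.44%) in SKO-L80A against SKO, and 2 (11.0%) in SKO-L80A+Vc against SKO-L80A. Without centring it was 1 (1.93%) in Sox2, 5 (3.70%) in the library labelled Oct4, 17 (28.4%) in SKO, 24 (41.1%) in SKO+shBrg1, 10 (7.80%) in SKO-L80A+Ga and 20 (31.3%) in SKO-L80A against Flag, 11 (15.2%) in Oct4-L80A against the Oct4-labelled library, and 7 (24.9%) in SKO-L80A+Vc and 1 (0.842%) in SKO-L80A+Ga against SKO-L80A; all 17 in SKO were higher and all 11 in Oct4-L80A against the Oct4-labelled library were lower. Quantile normalisation gave 1 (1.37%) in Sox2, 2 (1.19%) in the library labelled Oct4, 1 (0.300%) in Oct4-L80A, 3 (2.55%) in SKO+shBrg1 and 3 (2.74%) in SKO-L80A against Flag, and 0 (0.742%) in Oct4-L80A against the Oct4-labelled library. After it, Itgb2 was called lower than Flag in every condition but Klf4, SKO included. The 2-fold rule left 1 (0.870%) in Klf4, 0 (0.260%) in the library labelled Oct4, 2 (1.42%) in SKO, 2 (1.44%) in SKO+shBrg1, 2 (0.979%) in SKO-L80A+Vc, 2 (0.933%) in SKO-L80A+Ga and 3 (1.39%) in SKO-L80A against Flag, 0 (0.209%) in Oct4-L80A against the Oct4-labelled library, and 0 (0.00911%) in SKO-L80A+Vc against SKO-L80A. Centring on genes at the minimum signal left 5 (3.85%) in SKO+shBrg1 against Flag, and 0 (0.660%) in Oct4-L80A against the Oct4-labelled library. With either column alone the number called was 0 to 1 in Sox2, 2 to 4 in Klf4, 2 to 2 in the library labelled Oct4, 0 to 0 in Oct4-L80A, 5 to 7 in SKO, 3 to 10 in SKO+shBrg1, 4 to 5 in SKO-L80A+Vc, 5 to 8 in SKO-L80A+Ga and 8 to 9 in SKO-L80A against Flag, 1 to 6 in Oct4-L80A against the Oct4-labelled library, 0 to 1 in SKO-L80A and 0 to 0 in SKO+shBrg1 against SKO, and 1 to 2 in SKO-L80A+Vc and 1 to 1 in SKO-L80A+Ga against SKO-L80A.

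Among all genes, the share of calls that were higher was 31.2% in Sox2, 61.1% in Klf4, 79.8% in the library labelled Oct4, 11.4% in Oct4-L80A, 92.4% in SKO, 94.1% in SKO+shBrg1, 83.2% in SKO-L80A+Vc, 92.0% in SKO-L80A+Ga and 92.1% in SKO-L80A against Flag, 9.00% in Oct4-L80A against the Oct4-labelled library, and 21.7% in SKO-L80A+Vc against SKO-L80A. After quantile normalisation it was 44.7%, 60.5%, 51.7%, 31.8%, 69.0%, 69.5%, 68.0%, 73.1%, 65.9%, 30.7% and 65.1% in the same order, with centring on genes at the minimum signal 72.4%, 78.8%, 66.8%, 48.8%, 87.0%, 87.7%, 82.0%, 87.6%, 84.5%, 21.4% and 43.9%, and without centring 13.2%, 67.0%, 96.4%, 0.984%, 99.8%, 99.9%, 85.8%, 99.0%, 99.8%, 0.0597% and 0%. In SKO-L80A against SKO 3 genes were called higher and 1 lower, and 3 and 0 after quantile normalisation. In SKO-L80A+Ga against SKO-L80A 1 was called higher and 5 lower, 1 and 2 after quantile normalisation, 1 and 3 with centring on genes at the minimum signal and 0 and 185 without centring. The cause of these moves was not tested.

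No paired analysis was possible because each condition has 1 library. For the same reason nothing can be said of the replicate error of any gene. All leukocyte integrin genes, Itga7, Itga10, Itga11, Itgb4, Itgb6, Itgb1bp2 and Lamb1 lay under the minimum signal in every condition. The window of the deposited signal is unknown, so distal elements of these genes were not analysed here.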
